A study of Mus musculus with 4 samples.

Results

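The 10 mouse genes described here make or remove nitric oxide and prostanoids, and all 10 were found by symbol among the 25239 gene symbols of the count table. They are the nitric oxide synthases Nos2 and Nos3, the cyclooxygenases Ptgs1 and Ptgs2, the prostaglandin E synthases Ptges, Ptges2 and Ptges3, the prostacyclin synthase Ptgis, the prostaglandin D synthase Ptgds and the prostaglandin-degrading enzyme Hpgd. RNA-seq of poly(A) RNA was made from primary mouse chondrocytes, the cells that form and maintain cartilage. The 2 conditional knockout (cKO) libraries came from mice with Tiki2 fl/fl alleles and Col2a1-Cre/ERT, a tamoxifen-inducible Cre driven by a type II collagen promoter, and the 2 control libraries came from Tiki2 fl/fl mice without Cre. All 4 cultures received 4-hydroxytamoxifen, so a Cre effect and loss of Tiki2 (symbol Trabd2b) cannot be told apart. The labels give no ages and do not say if replicates were separate cultures or mice. The p-values below therefore reflect the spread among the 4 libraries. Part of it, and all of it between the cKO libraries, could be technical.

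Nitric oxide synthases make the gas nitric oxide from arginine. Nos2 is the inducible enzyme, switched on in chondrocytes by inflammatory cytokines such as interleukin 1, and Nos3 is the enzyme typical of endothelium. Prostanoids start from arachidonic acid, which phospholipases free from membranes. Cyclooxygenases turn it into prostaglandin H2, and terminal synthases make prostaglandin E2, prostaglandin D2 or prostacyclin from that intermediate. Both nitric oxide and prostaglandin E2 are produced in excess by osteoarthritic cartilage.

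Total counts were 76425194 and 78873054 in cKO replicates 1 and 2, and 66750140 and 77285899 in control replicates 1 and 2. Trabd2b, the targeted gene, had 22643 and 29473 counts in cKO and 28513 and 31314 counts in control libraries. In counts per 1000000 counts (CPM) of the TMM-scaled library size, these were 292 and 363 in cKO and 436 and 415 in control libraries. Both cKO libraries were thus lower. Trabd2b had a log2 fold change of -0.38 ± 0.11 (SE) and did not pass the test (edgeR quasi-likelihood test, adjusted p = 0.15). All 10 chondrocyte markers were detected, with Col2a1 at 5381 or more CPM in every library. Control replicate 1 stood apart by sex, with 1715 CPM of the X-inactivating RNA Xist and 0 counts of the Y-linked genes Ddx3y, Uty, Kdm5d and Eif2s3y. The other 3 libraries had 0.477 to 2.10 CPM of Xist. Values without that library are given where they bear on a result.

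Of the 10 genes, 1 passed the test as lower and 1 as higher in cKO cells. Nos2 was 2.96-fold lower and Ptgs1, the constitutive cyclooxygenase, was 1.52-fold higher, while Ptgs2, the inducible cyclooxygenase, had a log2 fold change of -0.031. Across the 15522 genes tested, 1.30% passed in either direction, 0.908% as lower and 0.393% as higher in cKO (edgeR, Benjamini-Hochberg adjusted p under 0.05). TMM scaling gave 61 calls upward and 141 downward over all genes, and scaling by library size only gave 116 upward and 123 downward. All 10 genes passed the filter on low counts. An unadjusted p under 0.05 was found for 4 of the 10, against 17.2% of all genes tested. The groups did not overlap for 6 of the 10, 2 with both cKO libraries higher and 4 with both lower, against 49.8% of all genes tested. The median log2 fold change of the 10 was -0.17, and that of all genes tested 0.0021.

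**Figure D1:**
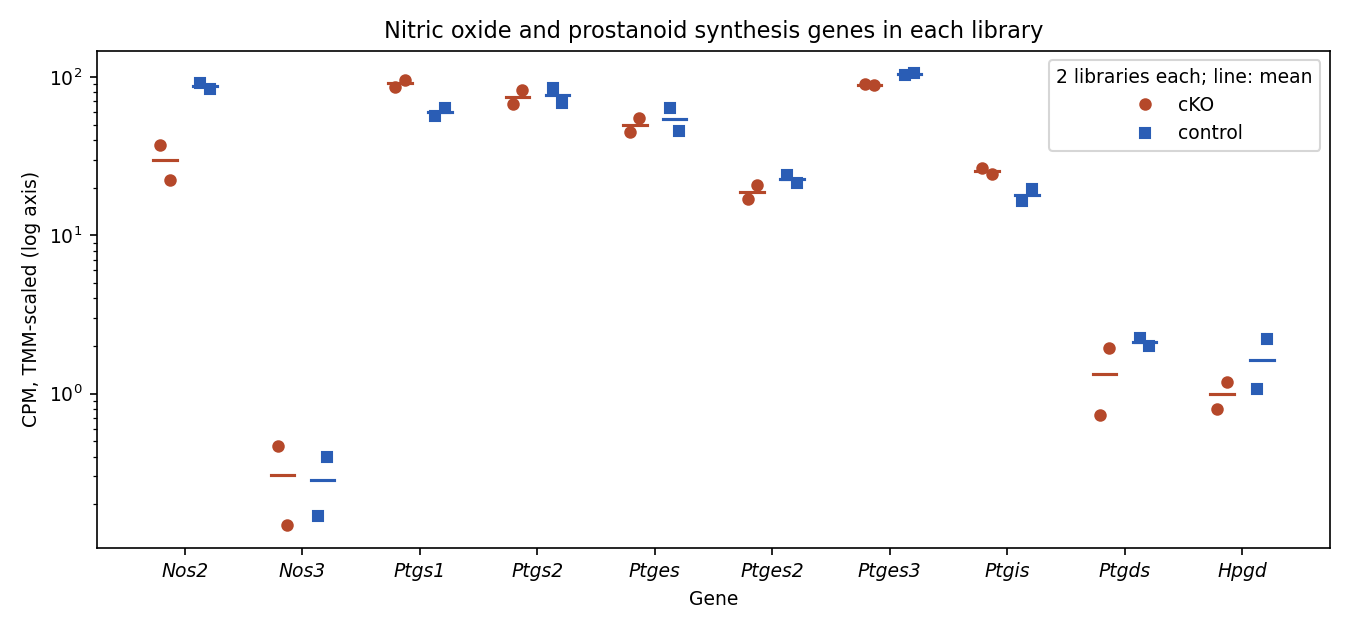
CPM on the TMM-scaled library size, on a log axis, for each of the 10 genes in the 2 cKO libraries (circles) and the 2 control libraries (squares), with the mean of each group as a line. Nos2 lies at 22.3 and 37.1 CPM in cKO, below both control libraries, Ptgs1 lies above both controls in cKO, and Nos3, Ptgds and Hpgd sit at the bottom of the scale.

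The promoters of the cyclooxygenase pair are shown because both enzymes catalyse the same step and 1 of the pair passed the test. Each sequence runs from 250 bases before to 50 bases after the RefSeq gene start (GRCm38.p6, plus strand), at chr2:36230176-36230475 for Ptgs1 and chr1:150099781-150100080 for Ptgs2. Capitals mark the motif matches found on either strand.
Ptgs1: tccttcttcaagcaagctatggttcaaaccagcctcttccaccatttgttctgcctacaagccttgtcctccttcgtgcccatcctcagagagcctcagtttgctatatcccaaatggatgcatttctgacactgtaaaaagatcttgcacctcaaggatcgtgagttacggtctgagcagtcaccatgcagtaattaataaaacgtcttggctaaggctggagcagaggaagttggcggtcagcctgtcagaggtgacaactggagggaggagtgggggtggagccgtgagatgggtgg
Ptgs2: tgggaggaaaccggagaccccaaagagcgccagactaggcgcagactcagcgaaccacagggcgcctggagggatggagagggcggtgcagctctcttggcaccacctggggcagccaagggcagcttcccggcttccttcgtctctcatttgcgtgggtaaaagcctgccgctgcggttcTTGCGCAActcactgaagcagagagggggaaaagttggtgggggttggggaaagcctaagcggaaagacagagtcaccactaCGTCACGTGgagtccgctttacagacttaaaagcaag
The Ptgs2 window held the C/EBP palindrome TTGCGCAA from -69 to -62, counted from the gene start. It also held the cyclic AMP response element core TGACG, read on the minus strand, at 14 to 18, and the E-box CACGTG at 17 to 22, which overlaps the core by 2 bases. The Ptgs1 window held no match to these 3 motifs, to the TATA box TATAAA, to the TCF/LEF core CTTTGA or to the NF-kappaB motif. Among 32851 promoter windows of the same length, TTGCGCAA was found in 0.183%, CACGTG in 7.15%, TGACG in 20.8%, TATAAA in 13.6%, CTTTGA in 16.0% and the NF-kappaB motif in 4.51%. Of the 10 genes 7 were in the promoter table, and Nos2, Nos3 and Ptgis were not. In the other 5 windows TATAAA matched in Hpgd, CACGTG in Ptges2, TGACG in Ptges3 and the NF-kappaB motif in Ptgds, with no match in Ptges. A match describes letters in the window and was not tested as a binding site.

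Nos2 (ENSMUSG00000020826.8, protein-coding, mm10 chromosome 11, 78920787 to 78960254, plus strand) had 2880 and 1810 counts in cKO replicates 1 and 2, against 5972 and 6366 counts in control replicates 1 and 2. On the TMM scale this was 37.1 and 22.3 CPM in cKO and 91.3 and 84.4 CPM in control libraries. Both cKO libraries were low, and the highest cKO value was under the lowest control value. The means were 29.7 ± 10.5 CPM in cKO and 87.9 ± 4.87 CPM in control libraries (SD, n = 2 each). Nos2 had a log2 fold change of -1.57 ± 0.22 (SE), with a 95% interval from -2.10 to -1.03 and an edgeR adjusted p of 0.0386. Of all fold changes tested, 0.999% were lower.

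The Nos2 call was lost without either control library. Without control replicate 1 the log2 fold change was -1.51 at an edgeR adjusted p of 0.15, and without control replicate 2 it was -1.62 at 0.18. Without cKO replicate 1 it was -1.98 at 0.00024, and without cKO replicate 2 it was -1.24 at 0.0024.

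Chondrocyte markers moved with Nos2. Their sum over 10 genes, scaled by library size, was 12705 and 9221 CPM in cKO and 22417 and 26398 CPM in control libraries. All 10 were lower in both cKO libraries than in both controls, against 24.9% of all genes tested. Of the 10 markers 8 passed the edgeR test as lower, against 0.908% of all genes tested. In these bulk cultures, fewer chondrocytes and less RNA per chondrocyte cannot be told apart. Set against that sum within each library, Nos2 had 2.97 and 2.49 counts per 1000 marker counts in cKO and 3.99 and 3.12 in control libraries. The means were 2.73 in cKO and 3.56 in control libraries, a 1.30-fold gap, against the 2.96-fold gap of Nos2 itself. The groups did not overlap on this measure. Col2a1 made up 60.1% to 65.6% of the marker sum, so the measure mostly set Nos2 against Col2a1. Single markers were from 1.30-fold (Sox9) to 3.41-fold (Snorc) lower in cKO, so the gap depends on the marker used. The part of the marker change in the Nos2 result was not tested. Macrophages are another known source of Nos2. Of 10 macrophage markers Fcgr1 and Tyrobp were at 0 in every library and 6 were under 1 CPM in every library. Cd68 had 9.40 and 7.90 CPM in cKO and 12.5 and 8.30 CPM in control libraries. Cd14 had 8.27 and 9.18 CPM in cKO and 8.67 and 7.25 CPM in control libraries. Lyz2 and Csf1r were also detected in every library. The part of macrophages in the Nos2 counts was not tested. The macrophage sum was 21.9 and 23.2 CPM in cKO and 25.6 and 18.7 CPM in control libraries, and the groups overlapped.

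The genes with profiles nearest to Nos2 over the 4 libraries were Azgp1, Fgfr3 and Col9a2, at Euclidean distances of 0.17, 0.17 and 0.19 between centred log2 CPM values. Fgfr3, a fibroblast growth factor receptor of cartilage, had 45.0 and 23.4 CPM in cKO and 102 and 103 CPM in control libraries. Col9a2, a chain of the cartilage collagen IX, had 127 and 88.2 CPM in cKO and 364 and 331 CPM in control libraries. As with Nos2, cKO replicate 2 was the lowest of the 4 libraries for each of these genes, a likeness that comes with choosing them by distance. With 4 libraries many genes can lie this close, so the distances only describe these profiles.

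Nos3 (ENSMUSG00000028978.12, chromosome 5, 24364810 to 24384474, plus strand) was barely detected. It had 36 and 12 counts in cKO and 11 and 30 counts in control libraries, or 0.464 and 0.148 CPM in cKO and 0.168 and 0.398 CPM in controls. Each group held a higher and a lower library, so the groups overlapped. Exact 95% Poisson intervals, which cover counting error only, ran from 25.2 to 49.8 for the 36 counts and from 6.20 to 21.0 for the 12 counts, so these did not overlap. Divided by 4, since low counts held an excess of multiples of 4, they were 9 and 3, and the intervals of 4.12 to 17.1 and 0.619 to 8.77 overlapped. Its log2 fold change was 0.10 ± 0.91 (SE; edgeR adjusted p = 0.97), and its 95% interval from -2.10 to 2.31 spans changes of either sign. Atg9b, an autophagy gene on the opposite strand, shares 294 exonic bases with Nos3 and had 257 and 135 counts in cKO and 498 and 599 counts in control libraries. The sources used here do not give the strand setting of the counts, so reads of the overlap could be assigned to either gene. Markers of endothelial cells, the usual source of Nos3, were low. Emcn was at 0 in every library, 6 of 8 endothelial markers were under 1 CPM throughout, and the sum was 6.01 and 6.40 CPM in cKO and 4.91 and 5.85 CPM in controls. Vwf had 3.28 and 3.10 CPM in cKO and 2.37 and 3.24 CPM in controls. Egfl7 had 1.69 and 2.33 CPM in cKO and 2.16 and 1.83 CPM in controls. These markers were above Nos3 in every library, and the source of the Nos3 counts was not tested.

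Ptgs1 (ENSMUSG00000047250.13, chromosome 2, 36230426 to 36252272, plus strand) encodes the cyclooxygenase that most tissues express without stimulation. It had 6742 and 7719 counts in cKO and 3685 and 4803 counts in control libraries. Normalised values were 86.9 and 94.98 CPM in cKO and 56.3 and 63.7 CPM in control libraries. Both cKO libraries were above both controls. Ptgs1 averaged 91.0 ± 5.69 CPM in cKO and 60.0 ± 5.20 CPM in control libraries (SD, n = 2 each). Ptgs1 had a log2 fold change of 0.60 ± 0.083 (SE), with a 95% interval from 0.40 to 0.80 and an edgeR adjusted p of 0.0373. The Ptgs1 call was lost without control replicate 1 (log2 fold change 0.51, edgeR adjusted p = 0.15), control replicate 2 (0.69, 0.15) or cKO replicate 2 (0.54, 0.052).

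Fibroblast and adipocyte markers are given beside the Ptgs1 result. Of 10 fibroblast markers 3 passed the edgeR test as higher, Col1a1, Col3a1 and Cd34, against 0.393% of all genes tested. Both cKO libraries were above both controls for 7, among them Dpt, Thy1, Pdgfra and Postn, against 24.9% of all genes tested. Dcn went the other way, with 1467 and 1472 CPM in cKO and 1761 and 1720 CPM in control libraries. For Lum and Fn1 the groups overlapped. The sum over the list was 50403 and 46706 CPM in cKO and 47508 and 50383 CPM in control libraries, but Fn1 made up 78.6% to 85.3% of it. Without Fn1, a choice made after seeing the data, the sum of the other 9 was 9264 and 9995 CPM in cKO and 7883 and 7404 CPM in control libraries, higher in both cKO libraries. Per 1000 counts of those 9 markers Ptgs1 had 9.52 and 9.79 counts in cKO and 7.0 and 8.39 counts in control libraries. With Fn1 included these were 1.75 and 2.10 counts in cKO and 1.16 and 1.23 counts in control libraries. The sum of 8 adipocyte markers was 228 and 362 CPM in cKO and 188 and 180 CPM in controls, with Lep at 0 in every library and no marker called. Both cKO libraries were above both controls for 4 of the 8, Adipoq, Plin1, Cfd and Fabp4, and below them for 0. Plin4, for which the groups overlapped, made up 37.5% to 52.5% of the sum. The part of these markers in the Ptgs1 result was not tested. The genes with profiles nearest to Ptgs1 were Pcdhb17, Pcdh18 and Zkscan16, at distances of 0.039, 0.062 and 0.066 on the centred log2 scale. Pcdh18, a cell adhesion protocadherin, had 17.7 and 20.1 CPM in cKO and 11.9 and 12.8 CPM in control libraries. Pcdhb17 belongs to a cluster of similar genes whose reads can be shared, so its counts are uncertain.

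Ptgs2 (ENSMUSG00000032487.8, chromosome 1, 150100031 to 150108227, plus strand) encodes the cyclooxygenase induced in inflammation. It had 67.2 and 82.9 CPM in cKO and 84.8 and 68.6 CPM in control libraries. Each group held a library near 68 CPM and a library above 80 CPM, so the groups overlapped. The means were 75.1 ± 11.1 CPM in cKO and 76.7 ± 11.4 CPM in controls (SD, n = 2 each). Ptgs2 had a log2 fold change of -0.031 ± 0.13 (SE; edgeR adjusted p = 0.94), and the 95% interval from -0.36 to 0.29 leaves out changes as large as that of Nos2. Its sign turned with library sizes alone (0.035), without control replicate 1 (0.13) and without cKO replicate 1 (0.11).

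**Figure D2:**
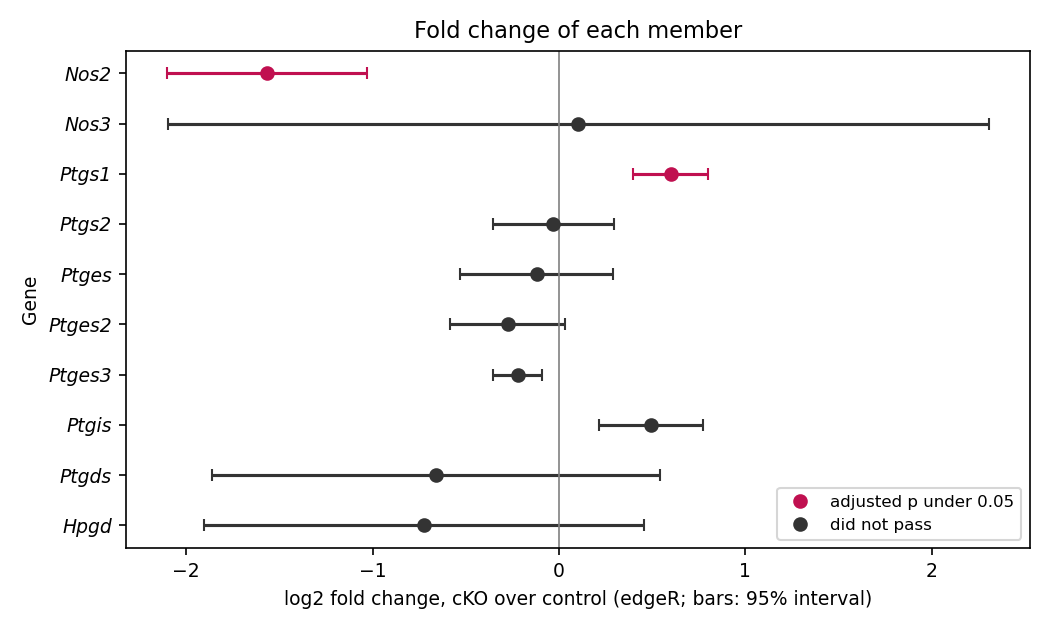
Log2 fold change of cKO over control for each of the 10 genes from the edgeR fit, with bars for the 95% interval and a line at 0. The Nos2 interval runs from -2.10 to -1.03 and the Ptgs1 interval from 0.40 to 0.80, and the Nos3, Ptgds and Hpgd intervals are the widest.

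Ratios within a library do not depend on how libraries are scaled. The ratio of Ptgs2 to Ptgs1, per kilobase of annotated exons, was 0.655 and 0.741 in cKO and 1.28 and 0.914 in control libraries. Ptgs2 was below Ptgs1 in both cKO libraries and in control replicate 2, and above it in control replicate 1. The log2 ratio differed by -0.63, cKO minus control, at an exact two-sided permutation p of 0.33, the smallest p that 2 libraries against 2 allow. The ratio of Nos2 to Ptgs2, both known to be induced by inflammatory cytokines, was 0.574 and 0.279 in cKO and 1.12 and 1.28 in control libraries. Nos2 was above Ptgs2 in both controls and below it in both cKO libraries. The log2 ratio differed by -1.58, again at the smallest exact permutation p of 0.33.

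**Figure D3:**
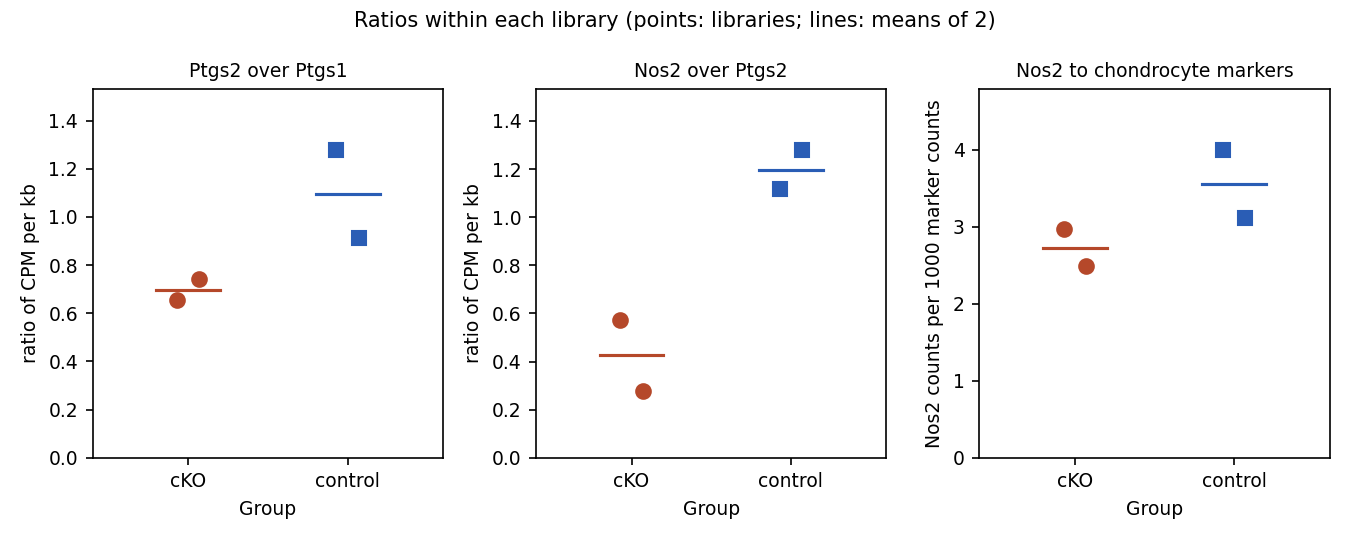
Ratios within each library, with cKO libraries as circles, control libraries as squares and group means as lines, on axes that start at 0. The left and middle panels plot ratios of CPM per kilobase, Ptgs2 over Ptgs1 (0.655 and 0.741 in cKO) and Nos2 over Ptgs2 (0.574 and 0.279 in cKO), and the right panel plots Nos2 counts per 1000 counts of 10 chondrocyte markers (2.97 and 2.49 in cKO), each below both control libraries.

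The 3 prostaglandin E synthases gave no call by edgeR, while DESeq2 called Ptges3 lower. Ptges (ENSMUSG00000050737.13, chromosome 2, 30889471 to 30929863, minus strand), the microsomal enzyme usually induced together with Ptgs2, had 45.0 and 54.8 CPM in cKO and 63.2 and 45.4 CPM in control libraries. The groups overlapped. The log2 fold change of Ptges was -0.12 ± 0.17 (SE; edgeR adjusted p = 0.78), and its sign turned without control replicate 1 (0.14) and without cKO replicate 1 (0.013).

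Ptges2 (ENSMUSG00000026820.5, chromosome 2, 32395896 to 32405772, plus strand) encodes a second membrane-associated synthase. It had 16.8 and 20.7 CPM in cKO and 24.0 and 21.4 CPM in control libraries, with a log2 fold change of -0.28 ± 0.13 (SE; edgeR adjusted p = 0.34). Both cKO libraries were below both controls, with the nearest pair less than 1 CPM apart.

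Ptges3 (ENSMUSG00000071072.12, chromosome 10, 128058954 to 128077272, plus strand) encodes the cytosolic synthase p23, which is also a co-chaperone of Hsp90. It had 89.7 and 88.7 CPM in cKO and 103 and 105 CPM in control libraries. Both cKO libraries were lower, and replicates lay close together within each group. Ptges3 had a log2 fold change of -0.22 ± 0.054 (SE), with a 95% interval from -0.35 to -0.089. Its edgeR adjusted p of 0.12 did not pass, while DESeq2 gave 0.038. The annotation lists a processed pseudogene, Ptges3-ps, and the sources used here do not say how reads shared by near-identical copies were assigned.

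Ptgis (ENSMUSG00000017969.13, chromosome 2, 167191805 to 167240604, minus strand), which makes prostacyclin, was higher in both cKO libraries than in both controls without passing the test. It had 2070 and 1967 counts in cKO and 1083 and 1474 counts in control libraries. These were 26.7 and 24.2 CPM in cKO and 16.6 and 19.5 CPM in control libraries. Ptgis had a log2 fold change of 0.49 ± 0.11 (SE), with a 95% interval from 0.22 to 0.77 and an edgeR adjusted p of 0.11. By DESeq2 it passed (adjusted p = 0.013), and without control replicate 1 the edgeR log2 fold change was 0.38 at 0.32. Ptgis shares 156 exonic bases with a transcript on the opposite strand, 1110018N20Rik.

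Ptgds (ENSMUSG00000015090.13, chromosome 2, 25466709 to 25470046, minus strand), the lipocalin-type prostaglandin D synthase, had 57 and 157 counts in cKO and 146 and 150 counts in control libraries. The low value belonged to cKO replicate 1 alone. In CPM these were 0.735 and 1.93 in cKO and 2.23 and 1.99 in control libraries, so cKO replicate 2 lay just under the controls. The exact 95% Poisson interval of the 57 counts, 43.2 to 73.9, did not reach that of the 157 counts, 133 to 184. Ptgds had a log2 fold change of -0.66 ± 0.49 (SE; edgeR adjusted p = 0.56), and it was -0.13 without cKO replicate 1 and -1.52 without cKO replicate 2.

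Hpgd (ENSMUSG00000031613.9, chromosome 8, 56294585 to 56321043, plus strand) encodes the dehydrogenase that inactivates prostaglandins. It had 62 and 96 counts in cKO and 70 and 166 counts in control libraries, or 0.799 and 1.18 CPM in cKO and 1.07 and 2.20 CPM in controls. Control replicate 2 was the highest library and the groups overlapped. Hpgd had a log2 fold change of -0.72 ± 0.49 (SE; edgeR adjusted p = 0.51), and it was -1.15 without control replicate 1 and -0.11 without control replicate 2.

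Levels were ordered by CPM per kilobase of the GENCODE exon union, which makes genes of unlike length comparable. In cKO libraries the order was Ptges3 (40.2), Ptgs1 (23.4), Ptgs2 (16.4), Ptges (12.7), Ptgis (9.91), Nos2 (6.73), Ptges2 (3.71), Ptgds (0.809), Hpgd (0.588) and Nos3 (0.0740). Only Ptgds and Hpgd had overlapping library ranges among neighbours there. In control libraries Ptges3 (46.9) came first again and Nos2 (19.9) came next, followed by Ptgs2 (16.7), Ptgs1 (15.5), Ptges (13.8), Ptgis (7.03), Ptges2 (4.49), Ptgds (1.28), Hpgd (0.972) and Nos3 (0.0685). Neighbours whose ranges overlapped there were Ptgs2 with Ptgs1, Ptgs1 with Ptges, and Ptgds with Hpgd. Nos2 thus stood at rank 6 in cKO and rank 2 in control libraries. Of the 10 genes 5 lie on chromosome 2, and of these Ptgs1 passed the test.

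Genes that supply or respond to these pathways gave no call. Over 7 lists, 102 of 106 listed symbols were in the table, 92 were tested and 0 passed (edgeR adjusted p), while 25 (27.2%) had an unadjusted p under 0.05, 12 higher and 13 lower, against 17.2% of all genes tested. By DESeq2, 7 were higher and 9 lower, and by limma-voom 0 were higher and 2 lower, Cebpd and Slc7a2. Of the 92, both cKO libraries were higher for 25 and lower for 22, against 24.9% in each direction for all genes tested. The number of edgeR calls changed with the library left out, as given in the closing section.

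Of 22 tested genes of arginine supply, the cofactor tetrahydrobiopterin and synthase partners, 17 had a log2 fold change below 0 (median -0.15). Gch1, which makes the first step towards tetrahydrobiopterin, had 11.8 and 10.2 CPM in cKO and 16.9 and 18.6 CPM in control libraries, a log2 fold change of -0.68 ± 0.12 (SE; edgeR adjusted p = 0.062). Slc7a2, an arginine transporter, had 692 and 533 CPM in cKO and 975 and 969 CPM in control libraries, at -0.67 ± 0.12 (SE; adjusted p = 0.062). Both cKO libraries were lower for each of these genes, which were picked by the smallest p in the list. Of the 22, both cKO libraries were lower for 9 and higher for 2, Ddah2 and Cav1, against 24.9% of all genes tested in each direction. Nos1, the neuronal synthase and the remaining family member, was chosen after its values were seen. It had 7.32 and 8.76 CPM in cKO and 9.28 and 15.3 CPM in control libraries (edgeR adjusted p = 0.28).

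Of 10 tested genes of the nitric oxide and cyclic GMP response, 7 were above 0 (median 0.16). Pde5a, a phosphodiesterase that breaks down cyclic GMP, had 26.4 and 34.1 CPM in cKO and 17.6 and 16.6 CPM in control libraries, a log2 fold change of 0.82 ± 0.14 (SE; edgeR adjusted p = 0.055). Pde5a passed with library sizes alone, with counts divided by 4, with DESeq2 and with a crossed replicate block chosen after seeing the data. It did not pass with limma-voom, with the size factors of DESeq2 in edgeR, with no filter or with the replicate block. Prkg2, a cyclic GMP-dependent kinase of growth plate chondrocytes, had 12.3 and 10.5 CPM in cKO and 14.7 and 17.3 CPM in control libraries (adjusted p = 0.15).

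On the prostanoid side, 7 phospholipases were tested, 5 of them above 0 (median 0.037). Pla2g15 had 56.5 and 57.7 CPM in cKO and 43.4 and 46.8 CPM in control libraries (edgeR adjusted p = 0.085). Pla2g12a had 19.4 and 17.4 CPM in cKO and 25.5 and 33.6 CPM in control libraries (adjusted p = 0.089), so the pair lay on opposite sides. Of 9 other prostanoid enzymes and transporters 6 were above 0 (median 0.27). Slco2a1, which takes up prostaglandins, had 86.7 and 114 CPM in cKO and 73.4 and 72.5 CPM in control libraries (adjusted p = 0.14). Abcc4, which exports them, had 44.3 and 40.3 CPM in cKO and 55.5 and 48.3 CPM in control libraries (adjusted p = 0.19).

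Of 9 tested genes for prostanoid receptors and a receptor regulator, 7 were above 0 (median 0.37) and none had an unadjusted p under 0.05 by edgeR, while DESeq2 and limma-voom called none. Ptgfr, the prostaglandin F receptor, had 23.4 and 45.2 CPM in cKO and 24.5 and 15.4 CPM in control libraries (edgeR adjusted p = 0.31), and the groups overlapped. Ptger4, a prostaglandin E2 receptor, had 6.87 and 8.26 CPM in cKO and 5.73 and 5.95 CPM in control libraries (adjusted p = 0.34), with both cKO libraries higher. Of 12 tested lipoxygenase and leukotriene genes 8 were above 0 (median 0.36). Lta4h, the leukotriene A4 hydrolase, had 83.1 and 83.6 CPM in cKO and 98.8 and 98.5 CPM in control libraries (adjusted p = 0.096). Alox5, the 5-lipoxygenase, had 24 and 15 counts in cKO and 0 counts in both controls (adjusted p = 0.13). Its mean of 0.247 CPM in cKO was 5.77-fold the mean control floor of 0.0428 CPM, which stands for 3 counts per library. This compares means and is not a lower bound for single libraries.

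The list of cytokines, receptors and factors known to induce Nos2 and Ptgs2 had 23 tested members with a median of -0.0062, 11 above and 12 below 0. Cebpd, a C/EBP transcription factor of the acute-phase response, had 83.0 and 79.6 CPM in cKO and 102 and 103 CPM in control libraries, a log2 fold change of -0.33 ± 0.056 (SE; edgeR adjusted p = 0.057). Jak2, a cytokine receptor kinase, had 57.1 and 50.2 CPM in cKO and 67.1 and 67.5 CPM in control libraries (adjusted p = 0.11). Il1r1, the interleukin 1 receptor, and Il1rn, its antagonist, were chosen after their values were seen. Il1r1 had 217 and 294 CPM in cKO and 191 and 181 CPM in control libraries (edgeR adjusted p = 0.17, called higher by DESeq2). Il1rn had 334 and 573 CPM in cKO and 260.0 and 258 CPM in control libraries (edgeR adjusted p = 0.15). Cebpd and Jak2 were thus lower, and Il1r1 and Il1rn higher, in both cKO libraries. Over the whole list, both cKO libraries were higher for 3 of the 23 tested genes and lower for 5, and 15 overlapped. Among all genes tested the share was 24.9% in each direction.

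**Figure D4:**
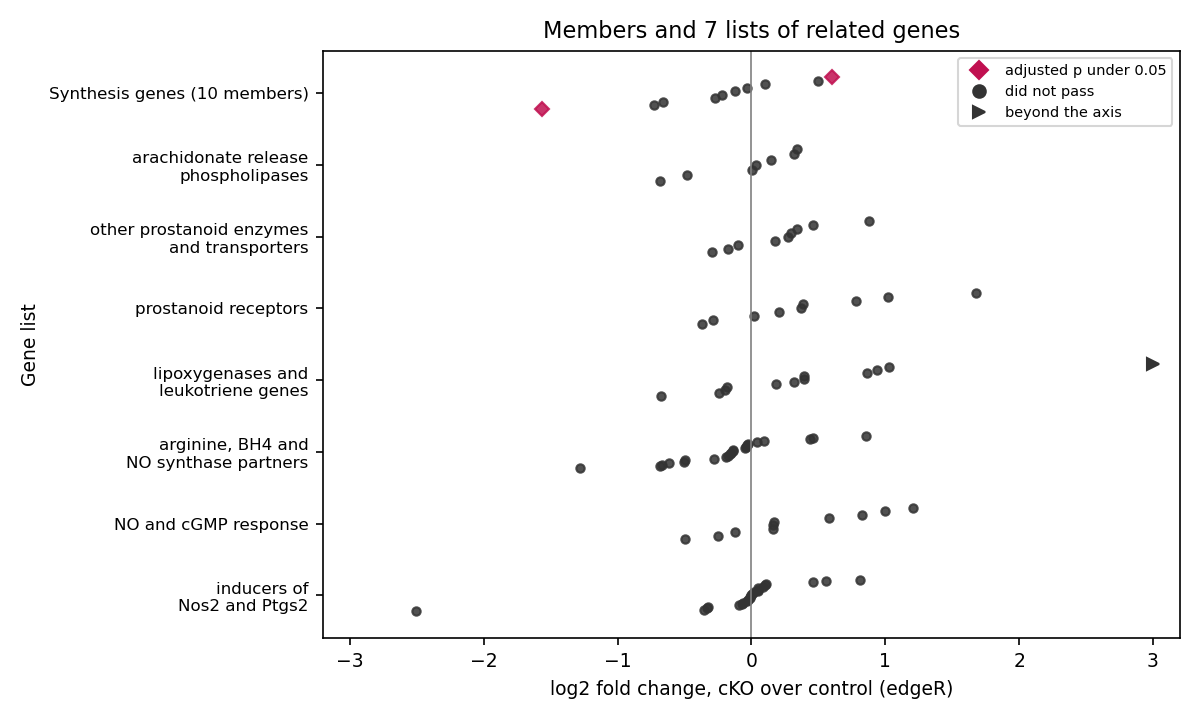
Log2 fold change of cKO over control (edgeR) for the 10 synthesis genes, in the top row, and for the tested genes of 7 related lists, 1 point per gene. The diamonds are Nos2 and Ptgs1, the only genes shown that passed the test, and the triangle is Alox5, at 0 counts in both controls and beyond the axis.

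The remaining marker lists gave no call by edgeR. The sum of 8 smooth muscle and pericyte markers was 847 and 601 CPM in cKO and 812 and 879 CPM in controls. Of 7 mast cell markers 5 were at 0 in every library (Mcpt4, Tpsb2, Cma1, Fcer1a and Ms4a2), and the sum was 0.471 and 0.520 CPM in cKO and 0.809 and 0.712 CPM in controls. The sum of 8 skeletal muscle markers was 47.0 and 10.9 CPM in cKO and 4.21 and 21.6 CPM in controls, with Myf5 and Pax7 at 0 throughout, and the groups overlapped.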

How the data were processed

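A single table was used, in which the authors deposited unscaled read counts by gene symbol for the 4 libraries. The submitters' processing notes name HISAT2 2.2.1, StringTie 2.1.7, Trim Galore 0.6.7, FastQC 0.11.9 and build mm10. The sources used here name no counting tool, strand setting or annotation. Positions and exon lengths are those of GENCODE M21 on mm10, and promoters from RefSeq on GRCm38.p6.

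Samples were grouped by their titles. Genes were kept by filterByExpr (minimum count 10) in edgeR 4.0.16 (R 4.3.3), scaled by TMM and tested for genotype, with no covariate, by the quasi-likelihood test with Benjamini-Hochberg adjustment over 15522 genes at 0.05. The script was tested on simulated data. CPM of single genes use the TMM-scaled library size, and marker sums the library size itself. A count of 1 is 0.0123 to 0.0153 CPM. Distances use log2 CPM with a prior count of 2. Poisson intervals and floors cover counting error only. Alternatives were limma 3.58.1 (voom), DESeq2 1.42.0, other scalings, no filter, counts divided by 4, replicate blocks and leaving out each library. Division by 4 was tried because 30.0% to 32.0% of values from 1 to 20 were multiples of 4.

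The 10 genes, the 7 related lists, the 9 marker lists and the tests were chosen with earlier results of these data known. The text names all 10 genes, the 2 genes with the smallest p in each related list, and the 3 nearest profiles of each called gene.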

Additional observations from a re-analysis of the deposited data

How the results depend on the processing

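Among the 12 alternatives, Nos2 stayed below 0 in all (log2 fold change -1.98 to -1.24) and passed in 9, and Ptgs1 stayed above 0 in all (0.51 to 0.69) and passed in 8. Calls among the 10 genes numbered 1 higher and 1 lower, and 2 and 2 with DESeq2, which added Ptgis and Ptges3. Leaving out 1 library at a time gave 0 to 1 higher and 0 to 1 lower. The labels do not say if the sample numbers pair libraries. The correlation of deviations between libraries of the same number was -0.12. With 2 libraries per group it is the same for both numbers, so it cannot exclude a shared preparation. With the replicate block, 0 of the 10 genes passed (Nos2 and Ptgs1 edgeR adjusted p = 0.051 each), and calls over all genes were 3 higher and 20 lower. A crossed replicate block, chosen after seeing the data, gave 223 higher and 341 lower over all genes, 1 and 1 among the 10 genes, and 2 and 5 among the related genes. Over all genes, 61 higher and 141 lower became 116 higher with library sizes alone, 525 and 646 with DESeq2, 106 and 227 with limma-voom, and 128 and 243 with counts divided by 4. Leaving out 1 library gave 1 to 312 higher and 4 to 470 lower. Related genes, with 0 calls in the report, numbered 1 higher with library sizes alone, 7 higher and 9 lower with DESeq2, 2 lower with limma-voom, and 1 higher and 3 lower with counts divided by 4. Leaving out 1 library gave 0 to 6 higher and 0 to 6 lower. Nos3 turned in sign with limma-voom (-0.033) and Ptgs2 with library sizes alone (0.035). Leaving out 1 library gave log2 fold changes of -0.94 to 0.86 for Nos3, -0.19 to 0.13 for Ptgs2 and -0.34 to 0.14 for Ptges, each reversed without control replicate 1 and without cKO replicate 1. The cause was not tested. Fits without a library assume that the lone sample varies like the other group. Nos3 had the fewest counts of the 10 genes, 11 to 36.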
